A study of Mus musculus with 192 samples.

Results

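The interferon stimulated genes described here are 34 genes, chosen by name from the 54752 genes in the expression table as well-known targets of type I interferon. They were followed in 9 tissues of male mice that either lived on the International Space Station for about a month (flight, FL) or were kept in a ground control (GC) that repeated the housing later and at another site. Each environment held wild-type (WT) mice and mice with a germline deletion of Nfe2l2 (Nrf2-KO, labelled Nrf2KO), the gene of the transcription factor Nrf2. All mice were labelled as C57BL/6 (C57BL/6J background in the methods) and as 12 weeks of age, and the 4 groups are GC_WT, FL_WT, GC_KO and FL_KO, with 6 mice in each. RNA was sequenced from thymus (Thy), spleen (Spl), the white fat of the epididymis (eWAT), the brown fat between the shoulder blades (iBAT), liver (Liv), the temporal bone (TpB) and the mandible (MdB), cerebrum (Cbr) and kidney (Kid), with 3 mice per group in mandible and kidney. Flight mouse 04, an Nrf2-KO mouse that returned with intestinal bleeding, was left out, so that 184 of 192 libraries were compared and FL_KO held 5 mice (3 in kidney, 2 in mandibular bone). The same mice gave the libraries of several tissues, so tissues are not independent samples. Flight and ground mice also differed in site and time of year, which cannot be told apart from flight.

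Type I interferons are secreted when a cell senses viral or misplaced nucleic acid. They bind a receptor that switches on the kinases Jak1 and Tyk2. Their substrates include Stat2, which acts with Irf9 in the complex ISGF3, and ISGF3 binds interferon stimulated response elements in the promoters of target genes. Those targets include RNA-binding blockers of translation (the Ifit genes), synthases of the 2-5A signal that activates RNase L (the Oas genes), GTPases (Mx and Gbp genes), further sensors (Ifih1, Ddx58, Dhx58, Zbp1, Eif2ak2), the factor Irf7 that raises interferon production, and the brake Usp18, which holds the receptor back. In a resting mouse these genes are kept at a low, constant level by traces of interferon. The thymus is a place where this constant signal is well known, because its medullary epithelium makes interferon without infection.

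The response element is written into many of these promoters. RefSeq promoter windows on GRCm38.p6, running from 250 bases before to 50 bases after the start of transcription, were found for 25 of the 34 genes. The motif GAAANNGAA, searched on both strands, stood in 16 of these 25 promoters, or 64.0% (exact binomial 95% interval 42.5 to 82.0), and in 9.76% of the promoters of 27025 genes. The motif TTCNNNGAA, the core of the interferon gamma activated sequence, which reads the same on both strands, stood in 5 of 25 (interval 6.83 to 40.7%), against 9.55% of all promoters. The stretches that follow are from genes that hold a match and on which the results turn. In the 250 bases before the start, Irf7, Oasl2 and Irf9 hold no match, which says only that these letters are not there. Matches that reach past the start were counted but are not listed by gene. Usp18, Zbp1, Oas2, Mx1 and Mx2 have no entry. The stretches are written in the direction of the gene, with the matches to GAAANNGAA in capitals. A match on the other strand is written as its reverse complement, and overlapping matches form one capital run. A match is a description of the letters, not evidence that the site is used.

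Isg15: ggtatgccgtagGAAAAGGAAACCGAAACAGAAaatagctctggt
Ifit1: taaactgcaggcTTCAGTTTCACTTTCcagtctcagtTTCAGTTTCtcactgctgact
Ifit3: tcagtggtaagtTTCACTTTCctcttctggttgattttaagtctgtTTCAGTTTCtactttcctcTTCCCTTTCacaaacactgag
Ifit3b: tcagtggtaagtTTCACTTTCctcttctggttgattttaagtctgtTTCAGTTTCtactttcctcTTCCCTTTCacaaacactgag
Ifih1: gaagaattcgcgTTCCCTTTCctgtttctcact
Rsad2: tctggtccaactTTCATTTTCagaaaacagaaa
Gbp3: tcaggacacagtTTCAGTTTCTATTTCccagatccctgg
Bst2: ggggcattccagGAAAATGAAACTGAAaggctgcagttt

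The Isg15 stretch lies at chr4:156200864-156200908 on the minus strand and holds 3 overlapping matches, 57 to 78 bases before the start. Ifit1 also has 3 matches, at chr19:34640768-34640825 on the plus strand. Ifit3 (chr19:34583362-34583447, plus) and its near copy Ifit3b (chr19:34607758-34607843, plus) share all 86 letters of the stretch, 93 to 155 bases before the start in Ifit3 and 125 to 187 in Ifit3b. The single matches of Ifih1 (chr2:62646347-62646379, minus) and Rsad2 (chr12:26456551-26456583, minus) lie just over 100 bases before the start. Gbp3 (chr3:142559988-142560026, plus) and Bst2 (chr8:71537576-71537614, minus) each hold 2 overlapping matches. The genes are also grouped on the chromosomes: all 5 Oas and Oasl genes are on chromosome 5, the 4 Ifit genes lie between 34550694 and 34650009 on chromosome 19, and Gbp2 and Gbp3 are neighbours on chromosome 3.

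The labels were checked first. Nfe2l2 RNA in each Nrf2-KO mouse was below that in each WT mouse in all 9 tissues, and it was called lower in all 9 tissues on the ground and in flight. Each tissue expressed its own defining markers in every group. The libraries held 8007523 to 16308175 assigned reads (median 14474799). In 8 libraries markers of another tissue stood apart: 4 of eWAT with B cell, T cell or epididymis RNA, 3 of iBAT with skeletal muscle RNA and 1 of temporal bone with little of it. Values without these 8 are given where they change a result.

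Levels are given as TPM, a transcript abundance scaled by gene length and by the total of the library. As one summary, the mean of log2(TPM + 1) over the 34 genes was taken in each mouse. The median of this level was highest in spleen (4.65, range over mice 4.25 to 5.13), followed by temporal bone (3.58, 3.19 to 4.78), eWAT (3.38, 2.97 to 4.06) and thymus (3.34, 2.72 to 4.01). It was lower in liver (2.17, 1.79 to 2.45), mandibular bone (2.09, 1.86 to 2.25) and kidney (1.98, 1.77 to 2.16), and lowest in iBAT (1.68, 1.43 to 2.10) and cerebrum (1.60, 1.5 to 1.91). The ranges of temporal bone, eWAT and thymus overlapped, as did those of liver, mandibular bone, kidney, iBAT and cerebrum. Spleen overlapped temporal bone only.

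**Figure D1:**
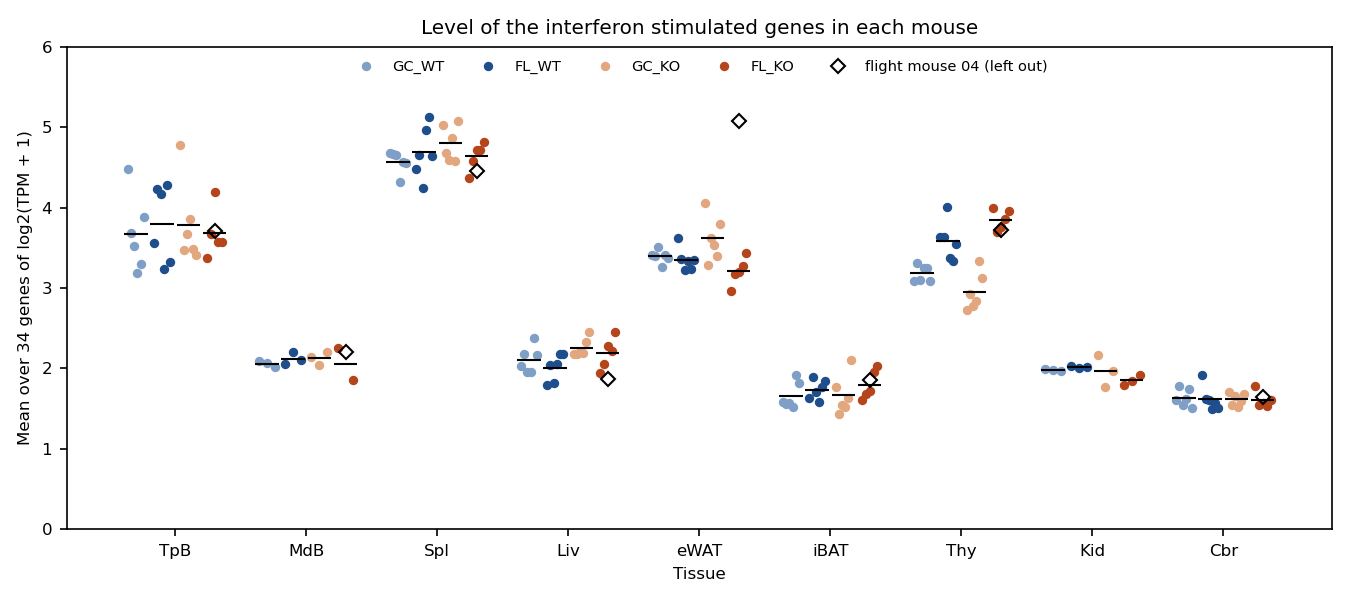
Mean of log2(TPM + 1) over the 34 interferon stimulated genes (vertical axis) in each mouse, by tissue (horizontal axis) and group, with a line at each group's mean. Open diamonds are flight mouse 04, which is in no mean. In thymus the means of the flight groups lie above those of the ground groups, while GC_KO mouse 11 lies just above FL_WT mouse 8. In eWAT mouse 04 lies at 5.08, above each other mouse.

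Single genes followed different orders across tissues. Irf7, the factor that amplifies interferon production, had group medians of 60.4 to 70.6 TPM in spleen, 21.5 to 24.8 in temporal bone and 1.39 to 1.66 in cerebrum. Isg15, a ubiquitin-like protein that is attached to other proteins, was highest in temporal bone, with medians of 20.7 to 37.4 TPM, and near 1 TPM in iBAT (0.99 to 1.58). Ifit1, which binds foreign RNA ends, had medians of 13.5 to 21.6 TPM in temporal bone and 0.71 to 1.18 in iBAT. Stat2, a component of ISGF3, varied less between groups: 71.6 to 73.5 TPM in spleen, 11.7 to 12.8 in cerebrum and 3.93 to 5.46 in iBAT. Ifi27l2a, a small membrane protein gene, was the most abundant member in eWAT, with a mean over groups of 3119 TPM. It had 213 TPM in spleen and 58.8 in thymus, whose libraries were of another type. In temporal bone each group spread widely, with Irf7 running from 10.7 to 74.5 TPM in GC_WT and from 15.8 to 83.2 in GC_KO.

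Differences were tested gene by gene within each tissue with edgeR's quasi-likelihood test on counts, all 4 groups in 1 fit, and a gene was called at a Benjamini-Hochberg adjusted p under 0.05 over all genes tested in that tissue. Fold changes are log2 values from this fit, with standard errors. Over the 9 tissues, 290 pairs of gene and tissue were tested. In Nrf2-KO mice, 32 pairs were called higher in flight and 21 lower, and in WT mice 12 were called higher and 8 lower. Of all gene and tissue pairs, 4.43% were called higher and 4.48% lower in Nrf2-KO flight mice, and 3.23% and 3.32% in WT flight mice. Every call of a higher level was in the thymus and, in Nrf2-KO mice, every call of a lower level was in spleen, liver, eWAT or iBAT. The median log2 fold change over all 290 pairs was 0.013 in WT and -0.14 in Nrf2-KO mice.

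**Figure D2:**
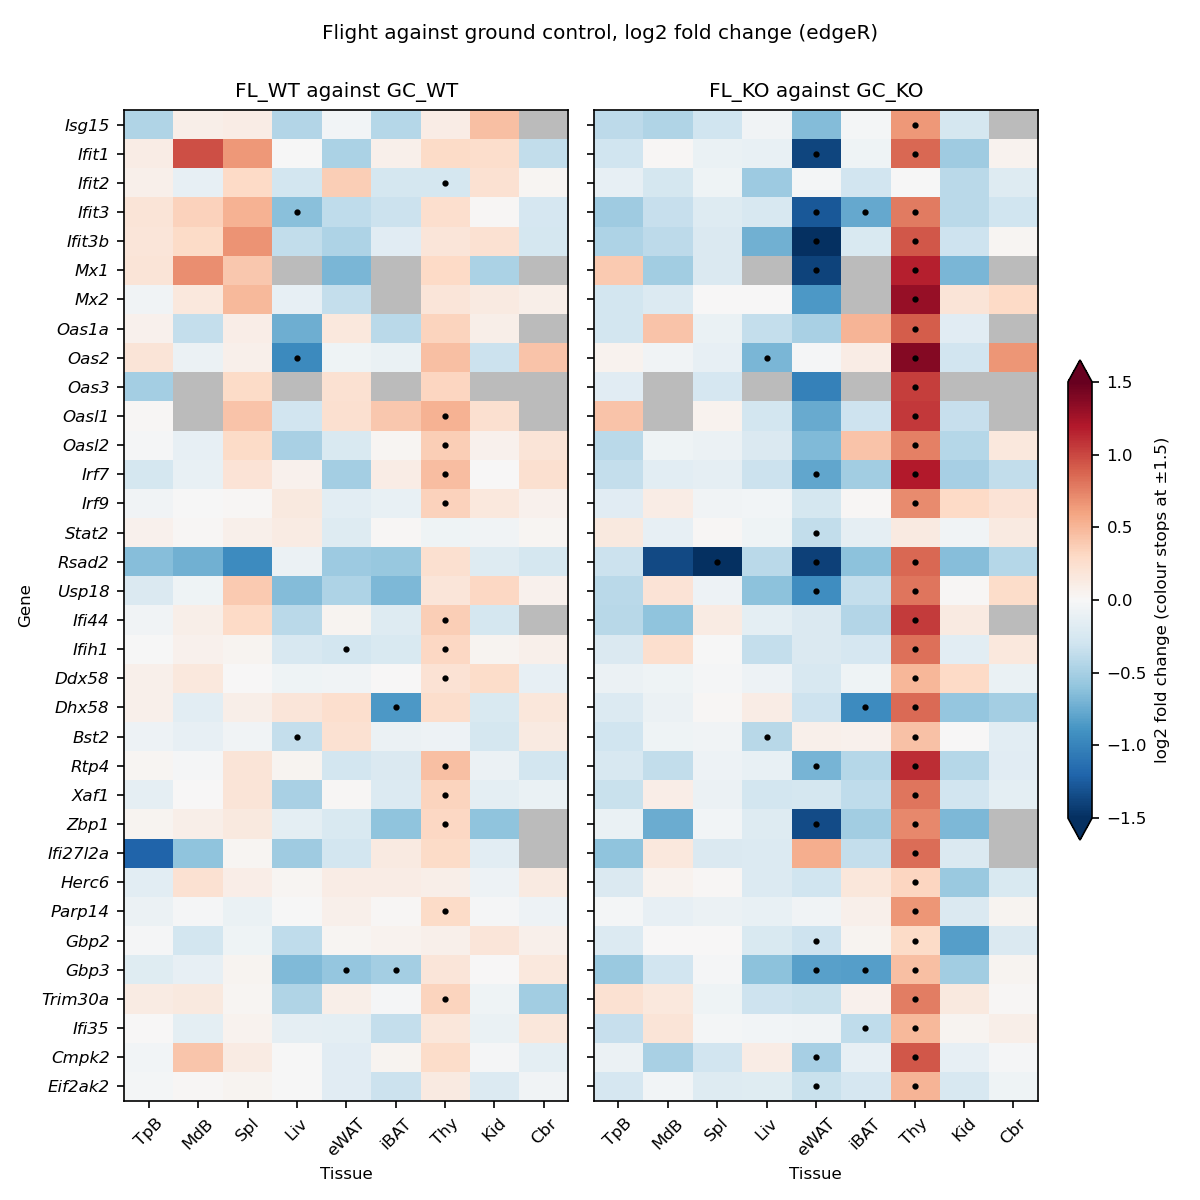
Log2 fold change of flight against ground (colour, red higher in flight, stopping at 1.5 either way) for each of the 34 genes (rows) in each tissue (columns), in WT mice (left) and Nrf2-KO mice (right). Dots mark genes called at an adjusted p under 0.05, and grey cells were not tested. The thymus column of Nrf2-KO mice is red with 32 dots, and the eWAT column is blue with 14.

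In the thymus of Nrf2-KO mice nearly the whole set rose in flight. Of 34 genes, 32 were called higher and none lower, where 19.3% of all genes tested in thymus were called higher. The fitted folds ran from 1.22 for Gbp2 to 2.59 for Oas2, with a median of 1.76 among the called genes. The median log2 fold change over the 34 genes was 0.80, and over all genes tested -0.0081. For 27 of the 34 genes the lowest FL_KO mouse was above the highest GC_KO mouse in TPM, as it was for 19.4% of all genes tested. By role, all 5 Oas and Oasl genes, both Mx genes, all 5 sensors, both Gbp genes and all 11 further effectors rose, with 3 of 4 Ifit genes, Isg15, Usp18 and 2 of 3 transcription factors.

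Irf7 (ENSMUSG00000025498, chromosome 7, 141262706 to 141266481) had 31.4, 26.0, 25.3, 24.9 and 23.9 TPM in FL_KO mice 1, 2, 9, 11 and 12, and 7.56 to 13.0 TPM (median 9.32) in the 6 GC_KO mice. Each flight mouse was thus above each ground mouse, and the log2 fold change was 1.18 ± 0.13 (SE; adjusted p 6.4e-07, edgeR). Usp18, the brake on the receptor, had 25.9, 19.7, 20.4, 23.0 and 22.1 TPM in the same flight mice against 7.88 to 14.8 (median 10.6) on the ground. These groups did not overlap either, with a log2 fold change of 0.80 ± 0.091 (adjusted p 9.9e-07). An activator and an inhibitor of the pathway moved in the same direction.

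The sensors rose together. Ifih1 (MDA5), which detects long double-stranded RNA, had 12.4, 11.8, 11.2, 12.0 and 12.0 TPM in FL_KO, close to each other, and 4.29 to 7.43 in GC_KO. Its log2 fold change was 0.82 ± 0.094 (adjusted p 9.9e-07, edgeR). Zbp1, a sensor of left-handed nucleic acid that can trigger cell death, had 26.6, 22.8, 25.8, 28.2 and 30.2 TPM in FL_KO and 9.07 to 18.7 in GC_KO. The groups were separate for both sensors, and Zbp1 rose by 0.72 ± 0.086 (adjusted p 1.4e-06). Ddx58 (RIG-I), Dhx58 (LGP2) and the kinase Eif2ak2 (PKR) rose by 0.50, 0.85 and 0.51 on the log2 scale.

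The largest folds were those of Oas2 and Mx2, which had low levels. Oas2, a 2-5A synthase, had 6.62, 5.81, 4.36, 5.27 and 6.40 TPM in FL_KO against 1.04 to 2.12 (median 1.93) in GC_KO. Each flight mouse was above each ground mouse, and the log2 fold change was 1.37 ± 0.18. Mx2, an antiviral GTPase gene that the annotation lists as a polymorphic pseudogene, had 4.23, 3.47, 3.10, 4.04 and 5.61 TPM in FL_KO and 0.98 to 2.03 in GC_KO. It rose by 1.3 on the log2 scale without overlap. After Irf7 (1.18) came Mx1, the neighbour of Mx2, with 1.16, then Rtp4, Oasl1, Ifi44 and Oas3 with 1.11, 1.06, 1.05 and 1.04.

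In 5 called genes the groups overlapped, and 2 genes were not called. Isg15 had 5.65 to 13.3 TPM in GC_KO, where mouse 11 was the highest and the median was 6.12, and 8.53 to 18.3 in FL_KO (0.65, adjusted p 0.0045, edgeR). Cmpk2, Gbp2, Herc6 and Rsad2 overlapped too, and the call of Rsad2 (0.86 ± 0.29) was lost without GC_KO mouse 1, GC_KO mouse 9 or FL_KO mouse 12. Ifit2 did not follow its family: it had 8.16 to 14.2 TPM in FL_KO and 6.93 to 13.5 in GC_KO, with a log2 fold change of -0.0061 (adjusted p 0.97). Stat2 had a log2 fold change of 0.14 (adjusted p 0.086).

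**Figure D3:**
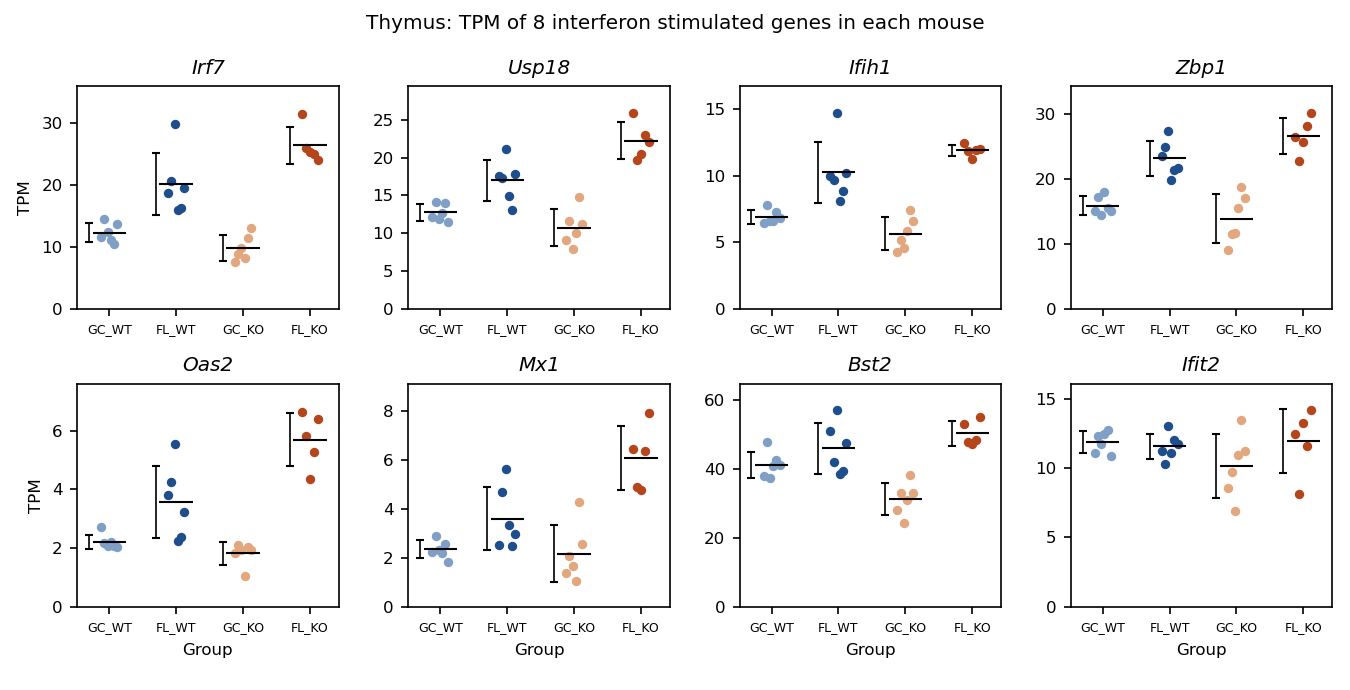
TPM (vertical axis) in the thymus of each mouse for Irf7, Usp18, Ifih1, Zbp1, Oas2, Mx1, Bst2 and Ifit2, by group, with the mean (line) and the SD (bar). FL_KO mice lie above GC_KO mice in each panel but Ifit2, and mouse 6 is the highest FL_WT mouse in Irf7 at 29.7 TPM.

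In WT thymus fewer genes of the set rose, and by less. Of 34 genes, 12 were called higher and 1 lower, where 11.8% of all genes tested were called higher and 11% lower. The median log2 fold change over the 34 genes was 0.28, against 0.021 over all genes. Folds of the called genes ran from 1.16 for Ddx58 to 1.43 for Oasl1. For 6 of the 12 (Ifih1, Irf7, Oasl2, Parp14, Trim30a and Zbp1) the flight and ground mice did not overlap in TPM. Called or not, 8 of the 34 genes lay above the ground mice without overlap, where 15.7% of all genes tested did.

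Irf7 had 15.9, 19.1 and 29.7 TPM as the lowest, median and highest of the FL_WT mice, against 10.5, 12.0 and 14.4 in GC_WT. The groups were separate, and the log2 fold change was 0.46 ± 0.12 (adjusted p 0.0085, edgeR). Oasl2, a 2-5A synthase-like gene, had 15.0, 19.2 and 27.3 TPM in FL_WT against 10.9, 13.3 and 14.6 in GC_WT. It rose by 0.37 ± 0.089 (adjusted p 0.0042) without overlap, and Zbp1 by 0.31, with 19.9 to 27.5 TPM in flight and 14.5 to 18.0 on the ground. Trim30a, which damps innate signalling, and Irf9, the DNA-binding part of ISGF3, rose by 0.34 and 0.35.

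Several genes that rose in Nrf2-KO thymus were not called in WT thymus, among them Usp18 (0.18), Mx1 (0.30), Mx2 (0.19), Isg15 (0.11) and Oas2 (0.45, adjusted p 0.065, edgeR). Oas2 spread from 2.24 to 5.53 TPM over FL_WT mice and from 2.05 to 2.70 over GC_WT mice. Ifit2 was the 1 gene called lower, by -0.27 ± 0.093 (adjusted p 0.038), although its TPM overlapped widely (10.3 to 13.0 in FL_WT, 10.9 to 12.8 in GC_WT), and the call was lost without GC_WT mouse 5, 6 or 7 or FL_WT mouse 3 or 5. FL_WT mouse 6 was the highest FL_WT mouse for Irf7, Ifih1, Oasl2, Zbp1, Oas2, Usp18 and Mx2. Without it, 5 genes were called higher. On log2(TPM + 1) values with limma, the median gene of the thymus moved by 0.18 in WT and 0.16 in Nrf2-KO flight mice, and 25 and 30 of 31 genes tested were called higher. Relative to that shift the median of the set was 0.24 and 0.79.

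Within flight, Nrf2-KO thymus held more of these RNAs than WT thymus. All 34 genes had a positive log2 difference of FL_KO from FL_WT, with a median of 0.38 (-0.0087 over all genes tested). Of these, 10 were called higher, where 1.31% of all genes were: Usp18, Trim30a, Zbp1, Oas2, Mx2, Parp14, Irf7, Mx1, Oas1a and Oasl2. Usp18 had 13.0 to 21.1 TPM (median 17.4) in FL_WT and 19.7 to 25.9 in FL_KO, a log2 difference of 0.47 ± 0.089 (adjusted p 0.0039, edgeR). Oas2 differed by 0.76 (adjusted p 0.018) and Irf7 by 0.48 (adjusted p 0.036). Flight groups of the 2 genotypes overlapped in TPM for each of the 34 genes, and the number of calls went from 2 without FL_KO mouse 12 to 21 without FL_WT mouse 6. It was 4 without FL_WT mouse 3, 8 or 10 and 3 without FL_WT mouse 7 or FL_KO mouse 1. On log2(TPM + 1) values with limma no gene was called, although the set lay 0.38 above the median gene.

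On the ground 2 genes were lower in Nrf2-KO than in WT thymus. There, 33 of 34 genes had a negative log2 difference of GC_KO from GC_WT (median -0.13). Of all genes tested, 48.5% had a positive one (median -0.0051). Bst2, a membrane tether that holds budding virus, and Ifi27l2a were called lower, by -0.30 and -0.49, where 1.13% of all genes were called lower. Bst2 had 24.4 to 38.4 TPM (median 32.0) in GC_KO and 37.3 to 47.8 (median 41.1) in GC_WT, with a slight overlap. In FL_KO it had 47.4 to 55.0 TPM. Both calls were lost without GC_WT mouse 5 or GC_KO mouse 4 or 9, that of Bst2 also without GC_WT mouse 10 and that of Ifi27l2a without GC_WT mouse 8.

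The difference between the flight responses of the genotypes was tested as an interaction. In thymus it was positive for all 34 genes, with a median of 0.53 (-0.024 over all genes tested). At an unadjusted p under 0.05, 29 of 34 genes were higher, against 5.07% of all genes, but none passed the adjustment with edgeR. Over all tissues 0% of gene and tissue pairs passed it. Usp18 had 0.62 ± 0.13, Bst2 0.52 ± 0.11 (adjusted p 0.27, edgeR), Irf7 0.72 ± 0.18 (adjusted p 0.31) and Ifih1 0.51 ± 0.13 (adjusted p 0.33). DESeq2 called 2 genes of the set, and edgeR called 11 without FL_WT mouse 6.

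**Figure D4:**
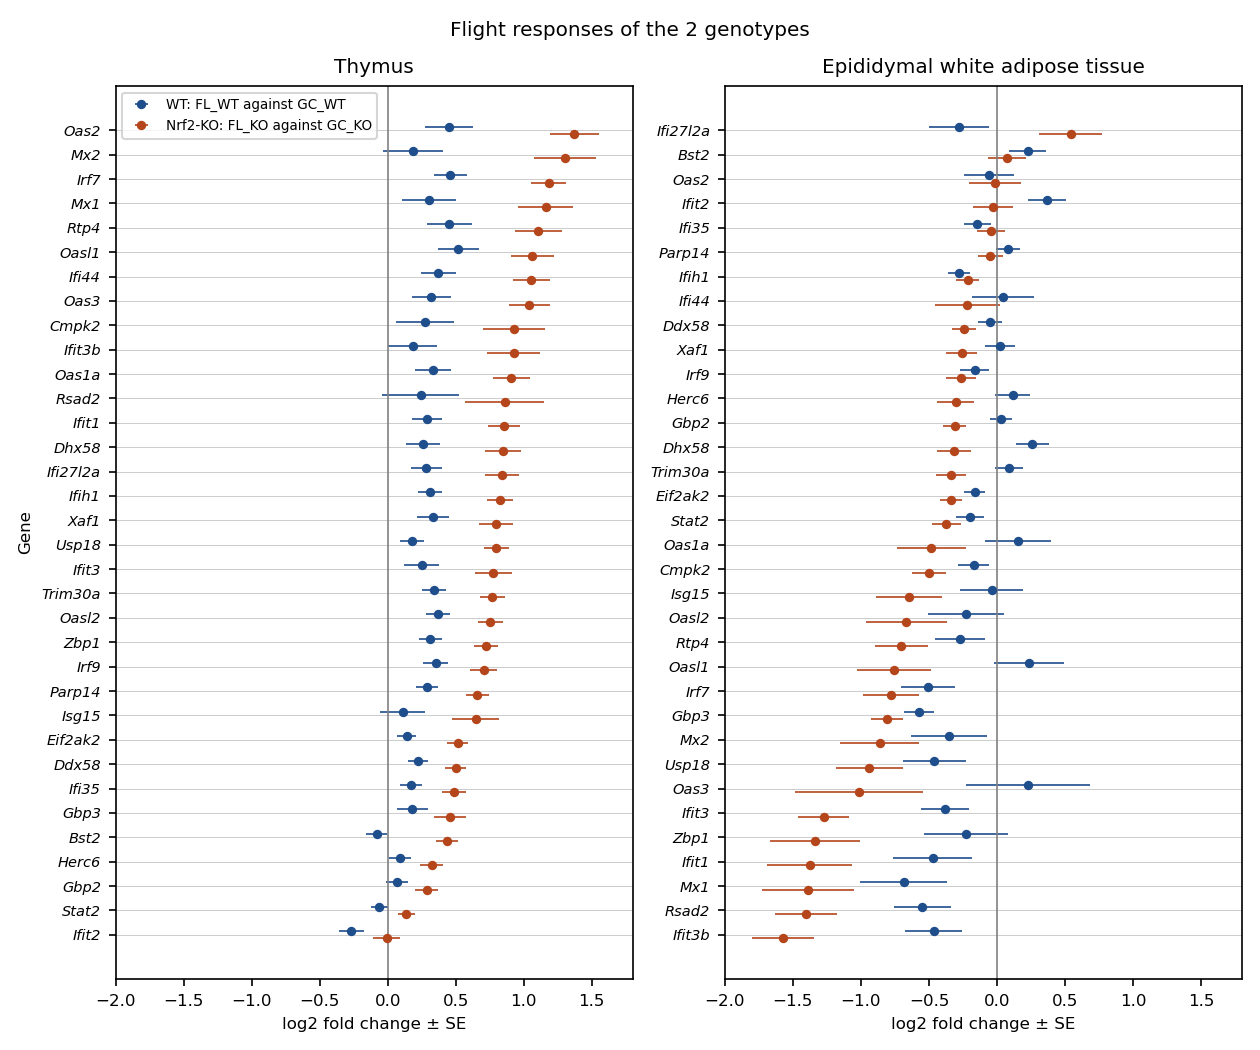
Log2 fold change of flight against ground with its standard error (horizontal axis) for each of the 34 genes (vertical axis) in WT mice (blue) and Nrf2-KO mice (orange), in thymus (left) and eWAT (right). The thymus medians are 0.80 in Nrf2-KO and 0.28 in WT mice, and in eWAT the Nrf2-KO value is the lower one in 30 of 34 genes.

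Markers of cell types moved in the same thymus libraries. Of 6 macrophage markers, 4 rose in WT and 6 in Nrf2-KO flight mice, with medians of 0.41 and 0.52, and their summed TPM was 130 to 174 in GC_WT, 174 to 353 in FL_WT, 95.9 to 153 in GC_KO and 183 to 255 in FL_KO. Of 5 T cell markers, 4 and 5 fell, and their sum was 1177 to 1356 in GC_WT, 991 to 1231 in FL_WT, 961 to 1368 in GC_KO and 907 to 992 in FL_KO. Of 4 B cell markers, 1 and 3 rose. Of 4 tested plasmacytoid dendritic cell markers, 3 and 2 fell. The 5 genes of that list summed to 2788 to 3089 TPM in GC_WT kidney, against 430 to 551 in GC_WT thymus and 719 to 968 in GC_WT spleen. The sum of this list is thus not particular to these cells, and which of its genes carry it in kidney is not given here. Calls of its genes cannot be read as a number of cells. No gene of these 4 lists was at 0 in all mice of a group. Between FL_KO and FL_WT, where 10 interferon stimulated genes were called, edgeR called none of the 6 macrophage and none of the 5 T cell markers. Of the 4 tested plasmacytoid dendritic cell markers 2 were called higher (median over the 4 of 0.29, highest 1.66). The TPM sum of that list went the other way, with 258 to 343 in FL_KO and 314 to 389 in FL_WT. B cell markers summed to 17.6 to 26.9 TPM in FL_KO and 19.7 to 22.5 in FL_WT. The part of cell composition in the thymus values was not tested, and in bulk tissue a change in the number of cells of a type and a change in RNA per cell cannot be told apart.

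In eWAT the set moved the other way in flight, again mostly in Nrf2-KO mice. In FL_KO against GC_KO, 14 of 34 genes were called lower and none higher, where 3.98% of all genes tested in eWAT were called lower. A negative log2 fold change was seen in 32 of 34 genes, with a median of -0.43 (-0.013 over all genes). The fall was steepest in the Ifit family, where 3 of 4 genes fell with a family median of -1.33, and in Rsad2 and Mx1. Both Gbp genes, Usp18, Irf7, Stat2, Zbp1, Eif2ak2, Cmpk2 and Rtp4 fell as well, and none of the 5 Oas and Oasl genes was called.

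Ifit3, an RNA-binding partner of Ifit1, had 11.3, 12.7, 15.9, 17.8 and 22.0 TPM in FL_KO mice 1, 2, 9, 11 and 12. In GC_KO it had 26.9, 38.5 and 55.2 TPM as lowest, median and highest, with mouse 1 the highest. The groups did not overlap, and the log2 fold change was -1.27 ± 0.19 (adjusted p 0.00046, edgeR). Its near copy Ifit3b fell by 1.57 ± 0.23, from 8.23 to 13.9 TPM in GC_KO to 2.38 to 4.93 in FL_KO. Reads shared by this pair were divided by RSEM, so the split between them is uncertain, as it is for other near copies such as Oas1a, the Gbp genes and Trim30a. Rsad2 (viperin), which blocks viral replication, had 1.69, 1.84, 4.07, 3.39 and 4.38 TPM in FL_KO against 6.32 to 9.67 (median 7.74) in GC_KO, without overlap (-1.40 ± 0.23).

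Gbp3, a GTPase induced by both interferon types, was lower in flight in both genotypes. It had 10.6, 10.4, 11.5, 13.7 and 13.6 TPM in FL_KO against 17.4 to 29.3 in GC_KO, and 10.2 to 15.6 in FL_WT against 14.3 to 20.2 in GC_WT. The Nrf2-KO groups were separate (-0.81 ± 0.12, adjusted p 0.00042, edgeR) and the WT groups overlapped slightly (-0.58 ± 0.11, adjusted p 0.0014). In WT eWAT, Gbp3 and Ifih1 (-0.28 ± 0.081) were the 2 genes called lower, where 6.78% of all genes were, and none was called higher. The median over the set in WT mice was -0.16 (-0.0039 over all genes). Ifih1 was lost without GC_WT mouse 3, 6 or 8 or FL_WT mouse 6, 8 or 10, and without the libraries with markers of other tissues 4 genes were called lower.

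**Figure D5:**
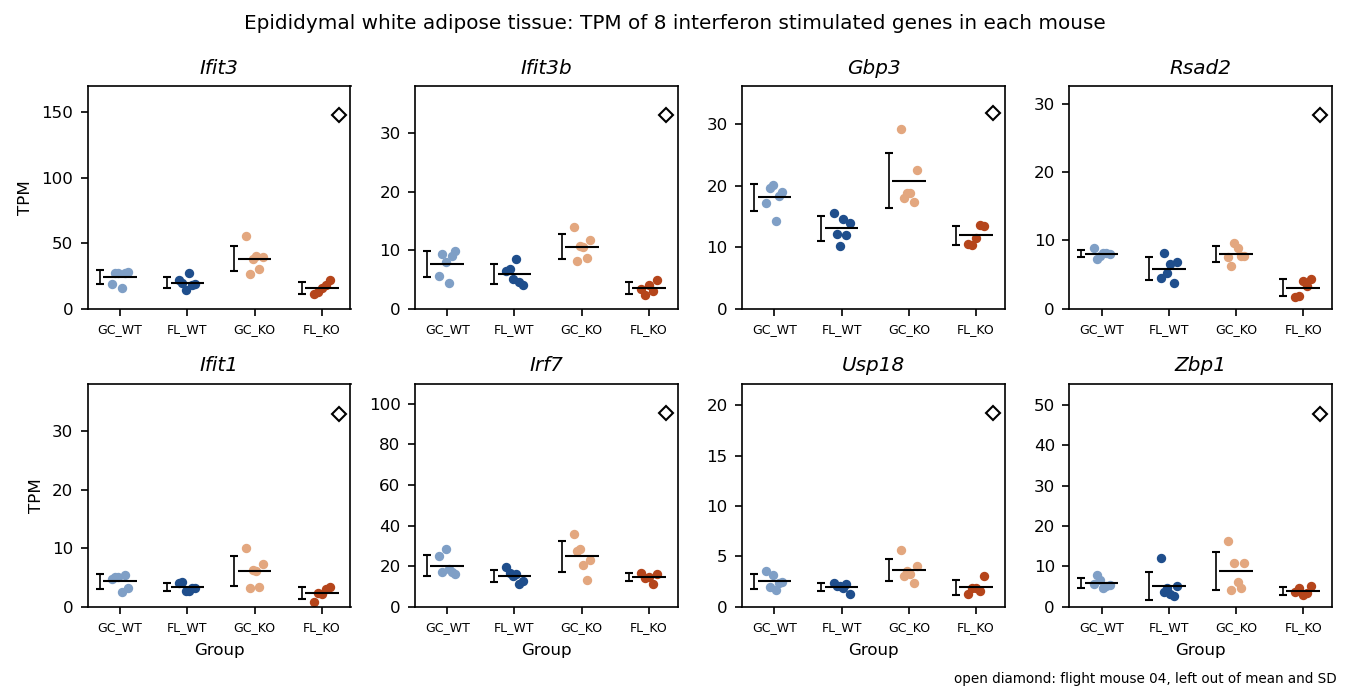
TPM (vertical axis) in the eWAT of each mouse for Ifit3, Ifit3b, Gbp3, Rsad2, Ifit1, Irf7, Usp18 and Zbp1, by group, with the mean (line) and the SD (bar). Open diamonds are flight mouse 04, in no mean, at 148 TPM for Ifit3 where the other FL_KO mice have 11.3 to 22.0.

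The ground Nrf2-KO mice were also the highest group in eWAT. The level of the set was 3.62 ± 0.28 (SD, n = 6) in GC_KO, 3.40 ± 0.082 in GC_WT (n = 6), 3.35 ± 0.14 in FL_WT (n = 6) and 3.21 ± 0.17 in FL_KO (n = 5). GC_KO mouse 1 stood highest at 4.06. Without it 9 genes were called lower in FL_KO, and without FL_KO mouse 2 it was 8. Over all tissues, the 21 lower calls became 13, 13 and 11 without GC_KO mouse 1, FL_KO mouse 1 or FL_KO mouse 2. Between FL_KO and FL_WT, Rsad2 alone was called lower (-0.96 ± 0.23, adjusted p 0.038, edgeR), where 0.659% of all genes were, with 3.85 to 8.22 TPM in FL_WT. This call was lost without the 4 eWAT libraries with markers of other tissues, and without 1 of several single libraries (FL_WT mouse 5, 6, 7 or 10, FL_KO mouse 1, 2 or 11). The interaction was negative in 30 of 34 genes (median -0.41, -0.0089 over all genes). At an unadjusted p under 0.05, 10 genes were lower and 1 higher, where 4.38% of all genes were lower, and edgeR and DESeq2 called none. Of 6 macrophage markers in eWAT, 2 were called higher in WT flight mice. In Nrf2-KO flight mice edgeR called none, with 3 of 6 negative, a range of -0.33 to 0.22 and 1 lower at an unadjusted p under 0.05, and their part in the result was not tested.

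Flight mouse 04 showed the opposite in the same tissue. Its eWAT held 148 TPM of Ifit3, 57.6 of Isg15 and 95.6 of Irf7, where the highest ground mice had 55.2, 10.9 and 36.1. For 33 of the 34 genes it was above all 23 other mice, and Ifi27l2a (3007 TPM) was the exception. The share of all genes for which this holds was not computed, so the count is not known to be particular to the set. Cxcl10, a chemokine induced by interferons, was at 36.3 TPM against at most 4.09 in ground mice, while Ifnb1 was listed at 0. When this mouse was counted in FL_KO, no gene was called lower in eWAT.

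In liver the set leaned lower in flight in both genotypes. In WT mice 3 of 32 tested genes were called lower, where 1.91% of all genes were, with 26 of 32 negative and a median of -0.25. In Nrf2-KO mice 2 were called lower, where 2.02% of all genes were, with 29 of 32 negative and a median of -0.21. Of all genes tested in liver, 50.0% were positive in WT (median 0.00014) and 52.2% in Nrf2-KO mice (median 0.0097). Bst2, the most abundant member in liver, had 108 to 154 TPM (median 136) in FL_WT against 145 to 185 (median 169) in GC_WT. In Nrf2-KO mice it had 134, 144, 177, 163 and 175 TPM in flight and 176 to 208 (median 186) on the ground. Both pairs of groups overlapped slightly, and the log2 fold changes were -0.36 ± 0.076 and -0.42 ± 0.080 (adjusted p 0.012 and 0.0039, edgeR).

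Oas2 in liver was near the lower limit of measurement. It had 0.49 to 0.80 TPM in FL_WT and 0.81 to 1.81 in GC_WT, just separate (-0.95 ± 0.18), and it was called lower in Nrf2-KO mice too (-0.68). In Nrf2-KO liver that call had an adjusted p of 0.044 (edgeR), which became 0.070 with the replicate block, and it was lost without most single Nrf2-KO mice, leaving 1 call. The remaining call in WT liver was Ifit3 (-0.62 ± 0.16), and without GC_WT mouse 7 there were 5. Macrophage markers moved with these genes in liver: 4 of 6 fell in WT mice (median -0.67) and 1 of 6 in Nrf2-KO mice (median -0.47), and their part in the result was not tested. No gene of the set was called on log2(TPM + 1) values in liver, where 12 genes were tested.

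In liver the genotype itself showed in Usp18. It had 2.45 to 3.95 TPM (median 2.80) in GC_KO and 1.13 to 2.31 (median 1.65) in GC_WT, without overlap (0.81 ± 0.18, adjusted p 0.013, edgeR). In flight it had 1.32 to 2.64 TPM in FL_KO and 0.92 to 1.43 in FL_WT, with a slight overlap (0.85 ± 0.20, adjusted p 0.017). It was the 1 gene of the set called higher on the ground in any tissue, where 0.938% of all genes in liver were called higher. In flight, Trim30a (0.55) and Oas1a (0.94) were called higher as well, where 1.36% of all genes were. Without FL_KO mouse 11, 1 of the 3 was called.

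In iBAT the calls were few and near the background. In WT mice 2 of 31 tested genes were called lower, where 10.3% of all genes were, and in Nrf2-KO mice 4, where 16.6% of all genes were. Dhx58, which regulates signalling by Ifih1, had 0.99 to 1.57 TPM in FL_WT against 1.20 to 2.63 in GC_WT, and 0.87 to 1.60 in FL_KO against 1.60 to 2.28 in GC_KO. The groups met or overlapped, with log2 fold changes of -0.86 ± 0.19 and -0.95 ± 0.20 (adjusted p 0.0027 and 0.00092, edgeR). Gbp3 fell in both genotypes (-0.51 and -0.82), and Ifit3 (-0.77) and Ifi35 (-0.38) in Nrf2-KO mice. On the TPM scale the median gene of iBAT moved by 0.31 and 0.43, and Ifi35 changed sign (0.053). Of 8 genes tested on that scale none was called lower, and 3 were called higher in Nrf2-KO mice. The count of lower calls with edgeR in Nrf2-KO mice was 2 without GC_KO mouse 1 or 12 or FL_KO mouse 1, 2 or 9, and in WT mice 1 without GC_WT mouse 6, 8 or 10 or FL_WT mouse 10. Macrophage markers were called higher in Nrf2-KO iBAT (5 of 6, median 0.66), and their part in the result was not tested.

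In spleen, where the set had its highest level, 1 gene was called. Rsad2 had 3.75, 3.62, 6.00, 7.50 and 6.38 TPM in FL_KO against 7.85 to 33.8 (median 22.1) in GC_KO, just separate. It fell by 1.81 ± 0.37 (adjusted p 0.017, edgeR), where 0.513% of all genes in spleen were called lower. In WT spleen the medians were 5.82 TPM in FL_WT and 12.5 in GC_WT (-0.94, not called). The call was lost without FL_KO mouse 1 or 2 or GC_KO mouse 9. In the same libraries all 5 erythroid markers were called lower in flight, with medians of -2.57 in WT and -3.01 in Nrf2-KO mice. None of 5 neutrophil markers was called (medians -2.13 and -1.10), and none of 6 macrophage markers. The part of these cells in the Rsad2 result was not tested.

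Rsad2, Ifit3 and 15 other genes were called in opposite directions in different tissues of the same Nrf2-KO flight mice: higher in thymus and lower elsewhere. These were 17 of the 32 genes called higher in thymus, where 13.8% of all genes called higher in thymus were called lower in another tissue. In eWAT these were Ifit1, Ifit3, Ifit3b, Mx1, Irf7, Rsad2, Usp18, Rtp4, Zbp1, Gbp2, Gbp3, Cmpk2 and Eif2ak2. Oas2 and Bst2 were lower in liver, Dhx58, Ifi35, Ifit3 and Gbp3 in iBAT, and Rsad2 also in spleen. In WT mice Ifih1 was the 1 such gene of 12, higher in thymus and lower in eWAT, where the share over all genes was 15.4%.

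In temporal bone, mandibular bone, kidney and cerebrum edgeR called no gene of the set in either flight comparison. At an unadjusted p under 0.05 there were 1, 2, 2 and 2 genes in WT (3.71, 8.68, 6.64 and 3.35% of all genes) and 0, 1, 8 and 3 in Nrf2-KO mice (2.67, 3.48, 12.8 and 5.52% of all genes), and DESeq2 called 1 gene in Nrf2-KO kidney and none in the others. Kidney had a median of -0.29 in Nrf2-KO mice with 25 of 33 tested genes negative, from 3 mice per group. Of all genes tested there, 51.2% were positive, with a median of 0.0053. Between the flight groups of kidney, Gbp2 was called lower in FL_KO, where 1.32% of all genes were: 2.06, 2.84 and 2.58 TPM against 5.72, 6.58 and 7.13 in FL_WT. The groups were separate (-1.38 ± 0.20, adjusted p 0.0017, edgeR), and the ground groups, at 4.53 to 6.96 in GC_WT and 3.33 to 5.15 in GC_KO, overlapped each other.

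Over all tissues the genotype on its own moved few of these genes. On the ground 1 of 290 pairs was called higher and 2 lower, where 0.836% and 0.814% of all gene and tissue pairs were. In flight 13 were called higher and 2 lower, where 0.5% and 0.855% were, and 10 of the 13 were in thymus. In spleen 33 of 34 genes had a positive difference of GC_KO from GC_WT (median 0.27), where 49.5% of all genes did. Of these, 8 had an unadjusted p under 0.05, where 5.95% of all genes were higher at that threshold, and edgeR and DESeq2 called none. The comparisons share the GC_WT, FL_WT, GC_KO and FL_KO mice among them, so their counts are not independent.

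The rest of the pathway was read from 6 lists. The ligands were at the edge of detection: of 13 interferon genes 1 (Ifng, in spleen) passed the filter on low counts, the highest value in any library was 3.1 TPM, and Ifnb1 was at 0 in 177 of 184 libraries. In Nrf2-KO thymus, where 19.3% of all genes were called higher, 31 of 35 further interferon stimulated genes rose and 1 fell (median 0.55), among them Rnf213 (0.85), Ifi203 (0.80) and Slfn5 (0.70). Of 22 genes of interferon gamma responsive GTPases and antigen processing, 14 rose and 3 fell (median 0.41), Nlrc5 (0.88), the activator of MHC class I genes, Tgtp2 (0.92) and Irgm1 (0.61) among them. Of 11 nucleic acid sensing genes 7 rose, including the adaptor Tmem173 (STING, 0.59), and none fell.

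Receptors and regulators had calls in both directions, where 19.3% of all genes in Nrf2-KO thymus were called higher and 18.9% lower. Of 15 receptor and JAK-STAT genes, 8 rose and 2 fell in Nrf2-KO thymus. Ifngr1, a chain of the interferon gamma receptor, fell by 0.65 in Nrf2-KO and 0.55 in WT thymus. Of 9 negative regulators 2 rose and 3 fell: Samhd1 (0.81) and Adar (0.36), which limit self nucleic acid, rose, and Socs1 (-0.58), the inhibitor of Jak kinases, fell. In WT thymus the counts of higher and lower genes were 18 and 1 for the further stimulated genes, 5 and 3 for the interferon gamma list, 3 and 0 for sensing, 3 and 3 for receptors, and 3 and 3 for negative regulators. Over all genes of WT thymus 11.8% were called higher and 11% lower.

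In Nrf2-KO eWAT the calls in the same lists were all lower, where 3.98% of all genes tested were called lower. They were 3 of 35 further stimulated genes, 4 of 22 interferon gamma genes and 1 of 14 tested receptor genes. None was among the sensing genes or the negative regulators. Over all 9 tissues in Nrf2-KO mice the counts of higher and lower pairs were 32 and 14 of 303 for the further stimulated genes, 14 and 16 of 192 for the interferon gamma list, 11 and 5 of 131 for receptors, 9 and 2 of 96 for sensing and 3 and 3 of 77 for negative regulators. In WT mice they were 25 and 14, 6 and 10, 6 and 8, 5 and 2, and 4 and 3. Of all gene and tissue pairs, 4.43% were called higher and 4.48% lower in Nrf2-KO mice, and 3.23% and 3.32% in WT mice.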

How the data were processed

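RNA of 9 tissues was sequenced from strand-specific libraries of poly(A) RNA (thymus: total RNA depleted of rRNA). Per the submitters' processing notes, reads were converted with bcl2fastq, aligned to mm10 with STAR 2.6.1 and counted with RSEM 1.3.1. The authors deposited 1 table with an expected count, a TPM and an FPKM for each gene and library; the deposited TPM values are scaled to gene length and to a fixed total per library. FPKM was not used. Groups were taken from the condition and genotype labels.

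Expected counts were rounded, filtered with filterByExpr, scaled by TMM and tested per tissue with edgeR 4.0.16 (R 4.3.3; estimateDisp, glmQLFit, glmQLFTest) in a model of 4 group means, with Benjamini-Hochberg adjustment over all genes tested in the tissue; genes were called at an adjusted p under 0.05. SE is the absolute log2 fold change over the square root of F. Where nothing else is said, p-values measure the spread between these mice. The script was tested on simulated data. The study used DESeq2; DESeq2 1.42.0, limma 3.58.1 on log2(TPM + 1) and log2(TPM + 0.1) for genes with a mean of at least 5 TPM in a group, other scaling and filtering, mouse 04 included, each mouse left out of all its tissues and the replicate block were alternatives. Leaving out 8 libraries with markers of other tissues was chosen after seeing the data. The members, gene lists and tests were chosen with earlier results of these data known.

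Named are Nfe2l2; Isg15, Ifit1, Irf7 and Stat2 in every tissue; for each contrast and tissue up to 4 members called higher and 4 lower with the smallest adjusted p; members called in at least 3 tissues of 1 contrast or in opposite directions; the 4 interaction pairs of smallest p; and up to 3 called pairs of each pathway list and contrast. Other genes named were chosen after their values were seen.

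Within the groups of each tissue, no pair of libraries held identical values or differed by less than sampling noise. Flight and ground mice of the same number are different animals and each number has 1 genotype. Deviations from the group means correlated above 0.1 over every same-numbered pair, among tissues with 3 or more pairs of a genotype, in Nrf2-KO liver only (0.22 to 0.37 over 5 pairs); with the replicate block 2 members were called lower there, as without it, but Oas2 was no longer one of them. Gene coordinates are GENCODE positions on GRCm38, and promoter sequences are from RefSeq for GRCm38.p6. Intervals cover counting error only. One gene of the pathway lists is not reported here.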

Additional observations from a re-analysis of the deposited data

Results flagged for a closer look

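In 4 of 28 groups of 4 to 10 mice, 1 mouse stood apart from the rest of its group in the level of the interferon stimulated genes (mean of log2(TPM + 1) over 34 genes), where chance gives about 1 in 20 groups. In temporal bone GC_KO mouse 1 was at 4.78, with the next mouse at 3.85. This library also had little skeletal muscle RNA, and the part of that in the level was not tested. In spleen GC_WT mouse 7 was the lowest at 4.32, with the next at 4.56. In eWAT FL_WT mouse 3 was the highest at 3.62, with the next at 3.36, and its B cell markers summed to 71.9 TPM. In cerebrum FL_WT mouse 3 was the highest at 1.91, with the next at 1.62.

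Flight mouse 04, which is in none of the comparisons, had a level of 5.08 in eWAT, above the highest ground mouse (4.06) and above the other FL_KO mice (2.97 to 3.44). In thymus its level was 3.72, above the highest ground mouse (3.34) and within the other FL_KO mice (3.69 to 3.99). Its Cd68 in eWAT, a macrophage marker, was 127 TPM, where the highest ground mouse had 75.7 and the highest other FL_KO mouse 81.6, and FL_WT mouse 3 had 172.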

How the results depend on the processing

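Over 9 tissues, the count of genes called higher in FL_WT against GC_WT was 12 and became 26 on both log2(TPM) scales with limma; the count called lower was 8 and became 5 without a filter on low counts and 1 on both log2(TPM) scales. In FL_KO against GC_KO the count called lower was 21 and became 8 with flight mouse 04 included, 13 with only the 2 groups in the fit and 9 on both log2(TPM) scales. GC_KO against GC_WT gave 1 higher, which became 0 with only the 2 groups and 3 with DESeq2, and 2 lower, which became 1 with only the 2 groups and 0 on log2(TPM + 0.1). FL_KO against FL_WT gave 13 higher, which became 6 with mouse 04 included and 0 on both log2(TPM) scales, and 2 lower, which became 4 with DESeq2 and 1 without the libraries with markers of other tissues. The interaction gave 0 and, with DESeq2, 2 higher. The cause of these moves was not tested.

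Leaving out 1 mouse at a time, from all its tissues, gave 5 to 15 higher and 5 to 9 lower in FL_WT against GC_WT, 31 to 33 higher and 11 to 23 lower in FL_KO against GC_KO, 1 to 2 and 0 to 3 in GC_KO against GC_WT, 4 to 23 and 1 to 4 in FL_KO against FL_WT, and 0 to 11 higher for the interaction. The lowest count of lower genes in FL_WT against GC_WT, 5, came without GC_WT mouse 8.

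With mouse 04 included, the eWAT difference of FL_KO from GC_KO changed sign for Cmpk2 (0.034), Ifit1 (0.26), Irf7 (0.14), Mx1 (0.75), Rtp4 (0.10), Usp18 (0.36) and Zbp1 (0.41), and that of Rsad2 from FL_WT (0.25). Ifi35 in iBAT changed sign on both log2(TPM) scales (0.053 and 0.062). With the replicate block, 14 were called higher and 11 lower in FL_WT against GC_WT. In FL_KO against GC_KO there were 33 and 21, and for the interaction 0. The same number marks different animals in every tissue, with correlated deviations in Nrf2-KO liver as given above. The genotype contrasts could not be fitted with the block. Of 67 named pairs of gene and tissue, RLE factors moved none past the threshold. Genes under about 1 TPM, such as Oas2 in liver, are limited by depth.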

Other observations

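In kidney, genes of the interferon gamma list differed between the flight groups. All 22 tested genes of the list had a negative log2 difference of FL_KO from FL_WT, with a median of -0.64, and 7 were called lower. Of all genes tested in kidney, 52.5% had a positive difference and 1.32% were called lower. The list leaned the same way on the ground: 20 of 22 genes were negative in GC_KO against GC_WT (median -0.39). None of them was called there, and 10 were lower at an unadjusted p under 0.05 (edgeR). Of all genes in that comparison, 50.7% were positive and 10.9% reached this threshold in either direction. Gbp6, a GTPase of the same family as Gbp2, had 0.44, 0.80 and 0.65 TPM in FL_KO and 2.82, 3.24 and 5.18 in FL_WT (-2.55). The groups were separate, with 3 mice in each. Iigp1 (-1.70) and Tgtp1 (-2.03), GTPases that act on intracellular pathogens, were called lower as well; Tgtp1 shares reads with its near copy Tgtp2. Cxcl10 had 0.76, 1.15 and 1.65 TPM in FL_KO and 4.29, 4.21 and 4.67 in FL_WT, again without overlap (-1.90). Ground mice lay between, at 2.49 to 3.44 TPM in GC_WT and 2.85 to 3.92 in GC_KO. Ifng itself reached at most 0.18 TPM in kidney.

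Among the ground Nrf2-KO mice, mouse 1 had the highest level of the 34 genes in temporal bone (4.78), eWAT (4.06) and cerebrum (1.70) and the lowest in thymus (2.72).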
